A study of Mus musculus with 40 samples.

Results

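RIF1 and the proteins it works with were followed at the transcript level through 6 genes: Rif1 itself, the catalytic subunits of protein phosphatase 1 (Ppp1ca, Ppp1cb and Ppp1cc), Trp53bp1 and Mad2l2. They were taken by their GENCODE M21 symbols from the 55487 mouse genes counted, all 6 were found, and all 6 passed the filter on low counts that left 11844 genes for testing. RIF1 is a large chromatin protein that carries PP1 to origins of replication, where PP1 removes phosphates placed by the DDK kinase and delays firing. At broken DNA ends, RIF1 binds phosphorylated 53BP1, the product of Trp53bp1, and together with REV7, the product of Mad2l2, and the shieldin complex it limits resection of the ends. In cleavage embryos these roles fall in division cycles that begin on maternal stores and pass to transcription of the embryo's own genome.

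Each library came from a whole mouse embryo whose cells were pooled, so fewer expressing cells and less RNA per cell cannot be told apart in any value given here. All embryos were injected as zygotes 17 to 18 hours after hCG with 20 µM siRNA and cultured in KSOM at 37 °C and 5% CO2, so the controls carry an injection and a control siRNA too. The groups were siCon 4-cell (7 embryos) and siRif1 4-cell (13 embryos), collected at 63 hours, and siCon 8-cell (8 embryos) and siRif1 8-cell (12 embryos), collected at 70 hours. The labels name 1 product for each siRNA, so no second siRNA against Rif1 was compared. The genotype is written (C57BL/6J xCBA) x DBA/2J, with the DBA number counting up by 1 from library to library to 41, which was read as the same cross throughout. The labels do not say which embryos came from which female, so the p-values measure the spread between these embryos.

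The 3 PP1 genes encode near-identical enzymes, and their coding sequences show how far their reads can be told apart. Over aligned coding bases, Ppp1ca and Ppp1cc were 78.1% identical, Ppp1ca and Ppp1cb 75.0%, and Ppp1cb and Ppp1cc 74.6%, and the longest identical runs were 44, 20 and 23 bases. Shown here are the most alike window of 60 bases, with 52 bases shared by all 3 genes, and then the least alike window, with 29 shared bases. Capitals mark bases that are not the same in all 3 genes. The sequences are from the GENCODE M21 transcripts (GRCm38, plus strand).
Ppp1ca, coding bases 814 to 873, chr19:4194838-4194897, exon 6: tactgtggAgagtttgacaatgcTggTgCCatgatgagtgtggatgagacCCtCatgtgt
Ppp1cb, coding bases 811 to 870, chr5:32487637-32487696, exon 7: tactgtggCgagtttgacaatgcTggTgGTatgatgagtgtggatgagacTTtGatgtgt
Ppp1cc, coding bases 814 to 873, chr5:122173212-122173271, exon 6: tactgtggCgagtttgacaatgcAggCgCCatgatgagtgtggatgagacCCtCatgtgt
Ppp1ca, coding bases 53 to 112, across exons 1 and 2: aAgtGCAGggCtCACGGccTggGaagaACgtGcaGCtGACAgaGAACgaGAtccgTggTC
Ppp1cb, coding bases 50 to 109, across exons 1 and 2: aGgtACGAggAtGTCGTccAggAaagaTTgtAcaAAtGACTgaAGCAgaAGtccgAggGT
Ppp1cc, coding bases 53 to 112, across exons 1 and 2: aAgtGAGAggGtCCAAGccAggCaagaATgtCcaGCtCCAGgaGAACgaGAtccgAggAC
Even in the most alike window each gene differs from each other gene. The sources used here give no read length. Ppp1ccb, annotated as a transcribed processed pseudogene, drew 378 counts over all 40 libraries against 16501 for Ppp1cc, so a share of Ppp1cc reads could have gone to it or come from it.

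On GRCm38, Rif1 (ENSMUSG00000036202) lies on chromosome 2 from 52072832 to 52122383 and Trp53bp1 (ENSMUSG00000043909) on the minus strand of the same chromosome from 121193281 to 121271407. Ppp1ca (ENSMUSG00000040385) is on chromosome 19 from 4192065 to 4195420, Ppp1cb (ENSMUSG00000014956) on chromosome 5 from 32458843 to 32517433, and Ppp1cc (ENSMUSG00000004455) on chromosome 5 from 122158278 to 122175273. Mad2l2 (ENSMUSG00000029003) is on chromosome 4 from 148130384 to 148145699. The library type does not mark strand, so reads from stretches shared with a gene on the other strand cannot be assigned. Trp53bp1 shares 2130 of its 14164 exon bases with Tubgcp4, Ppp1ca shares 225 of 2520 with Rad9a, both on opposite strands, and Ppp1cb shares 1908 of 10913 with the transcript Gm43312 on its own strand. No exon base of Rif1, Ppp1cc or Mad2l2 is shared.

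Libraries held 704863 to 8890551 counts in mouse genes. All 10 markers of oocytes and cleavage embryos had counts in every group, with summed levels of 2244 to 5534 CPM (counts per 1e+06 counts, after TMM scaling) over the embryos. Markers of cumulus and granulosa cells summed to between 0 and 17.5 CPM, with Ptx3 at 0 throughout. Among the siCon 4-cell embryos, numbers 3 and 7 stood apart from the other 5 for Mad2l2, and the differences of the 6 genes that use this group are given without them too. ERCC spike-in RNA took 1.09% to 7.18% of counts. Differences below are from edgeR's quasi-likelihood test with Benjamini-Hochberg adjustment over all genes tested, and a gene was called where the adjusted p was below 0.05.

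Rif1, the siRNA target, had its lowest control values above most siRif1 values. In siCon 4-cell embryos it ran from 302 to 567.7 CPM with a median of 367 CPM, and in siRif1 4-cell embryos from 88.3 to 381 CPM with a median of 149 CPM. Of the 13 siRif1 embryos, 11 were below every control, and numbers 7 and 10, at 349 and 381 CPM, lay inside the control range. Rif1 fell by 1.26 on the log2 scale (SE 0.24, 95% interval -1.75 to -0.78, adjusted p = 0.0064), leaving 41.5% of the control mean, in a comparison that called 0.566% of genes. The size was similar when the call was lost: -1.10 when libraries were scaled to ERCC totals (edgeR adjusted p = 0.60), -1.27 with only these groups fitted (0.054), -1.23 with the replicate number as a block (0.071) and -1.35 without siCon embryos 3 and 7 (0.051). The 10 markers of oocytes and cleavage embryos moved in both directions in this comparison. Their log2 differences were below 0 for 7 and above 0 for 3, with a median of -0.55. The test called 2 of them lower and 0 higher in the siRif1 group. Summed over the 10, the median embryo had 2980 CPM among siCon and 4009 CPM among siRif1 4-cell embryos. Dppa3 and Dppa5a had means of 1907 and 926 CPM in the former and 2416 and 1412 CPM in the latter. Btg4, which acts in the clearance of maternal mRNA, and Bmp15, an oocyte growth factor, were at 612 and 454 CPM in siCon embryo 7 and at 179 and 102 CPM in siCon embryo 3, above the other 5 controls, which reached 90.1 and 50.1 CPM. Without these embryos 0 of the 10 markers were called and their median was -0.45. The part of these markers in the differences between siRif1 and siCon 4-cell embryos was not tested.

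At the 8-cell stage the groups were closer. Rif1 ran from 262 to 382 CPM with a median of 302 CPM in siCon embryos and from 94.6 to 410 CPM with a median of 220 CPM in siRif1 embryos. Of the 12 siRif1 embryos, 9 lay below every control and number 11 lay above every control. The log2 difference was -0.52 (SE 0.24, 95% interval -0.99 to -0.04), and edgeR's adjusted p was 0.999, in a comparison that called 0.00844% of genes. The difference between the stages was 0.75 (SE 0.34, edgeR adjusted p = 0.74), in a test that called 0% of genes, with 734 genes at an unadjusted p below 0.05 and 9 called by DESeq2. Relative to their means, siRif1 embryos varied more in Rif1 than controls did at both stages. The coefficient of variation was 53.1% against 25.1% at the 4-cell stage and 42.2% against 13.6% at the 8-cell stage. In CPM the SD was 94.5 in siRif1 and 107 in siCon embryos at the 4-cell stage, and 92.9 and 42.6 at the 8-cell stage.

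From the 4-cell to the 8-cell stage, Rif1 was not called in either siRNA group. In siCon embryos the log2 difference was -0.45 (SE 0.27, edgeR adjusted p = 0.21), and 4 of 8 embryos at the 8-cell stage lay below every 4-cell embryo. With only the control groups fitted it was -0.50 and was called (edgeR adjusted p = 0.037), and with ERCC scaling it was 0.06. It was -0.55 and not called without siCon 4-cell embryos 3 and 7 (edgeR adjusted p = 0.19). In siRif1 embryos the difference was 0.30 (SE 0.21, edgeR adjusted p = 0.28).

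**Figure D1:**
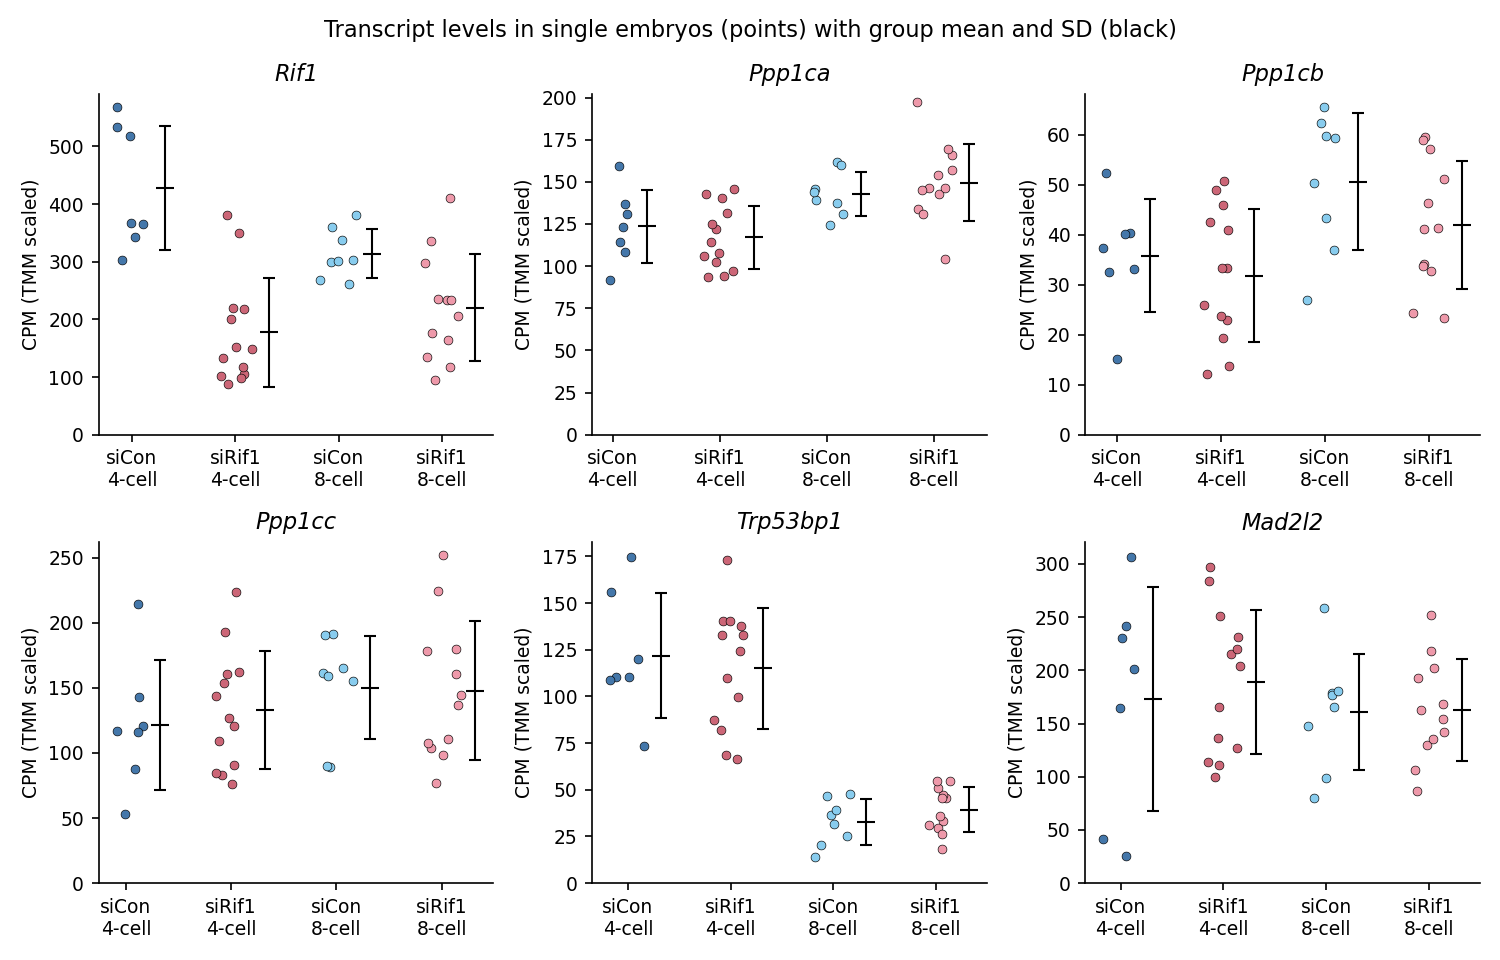
Level of each of the 6 transcripts in every embryo, in CPM after TMM scaling on axes that start at 0, with the 4 groups along the x axis. Points are embryos and black bars are the group mean and SD. Rif1 is lower in most siRif1 embryos, Trp53bp1 lies lower at the 8-cell stage in both siRNA groups, and 2 siCon 4-cell embryos have Mad2l2 at 41.3 and 25.2 CPM.

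None of the 5 partner transcripts differed by the test between siRif1 and siCon embryos. At both stages 0 of 5 were called by edgeR, 0 of 5 had an unadjusted p below 0.05, and DESeq2 called 0 of 5. Over all 11844 genes, edgeR called 0.566% at the 4-cell and 0.00844% at the 8-cell stage, and DESeq2 called 180 and 1 genes. An unadjusted p below 0.05 from edgeR was found for 1320 and 349 genes. At these shares, 0 of 5 does not set the partners apart from other genes. Their log2 differences ran from -0.18 to 0.13 at the 4-cell stage and from -0.27 to 0.27 at the 8-cell stage. Without siCon 4-cell embryos 3 and 7 the 4-cell differences were -0.08 for Ppp1ca, -0.22 for Ppp1cb, -0.10 for Ppp1cc, -0.14 for Trp53bp1 and -0.28 for Mad2l2, and 0 of 5 were called. These embryos stood apart by their low Mad2l2, so its difference was bound to fall without them. The 95% intervals bound what could have been missed. For Ppp1ca they ran from -0.32 to 0.17 at the 4-cell stage and from -0.17 to 0.30 at the 8-cell stage, the narrowest of the 5. For Mad2l2, the widest, they ran from -0.46 to 0.72 and from -0.55 to 0.59. Trp53bp1 had the highest difference at the 8-cell stage, 0.27 with an interval of -0.15 to 0.69, and 3 of 12 siRif1 embryos lay above every control. The siRNA effect on these 5 transcripts did not differ by the test between the stages either (edgeR adjusted p between 0.96 and 1.00).

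**Figure D2:**
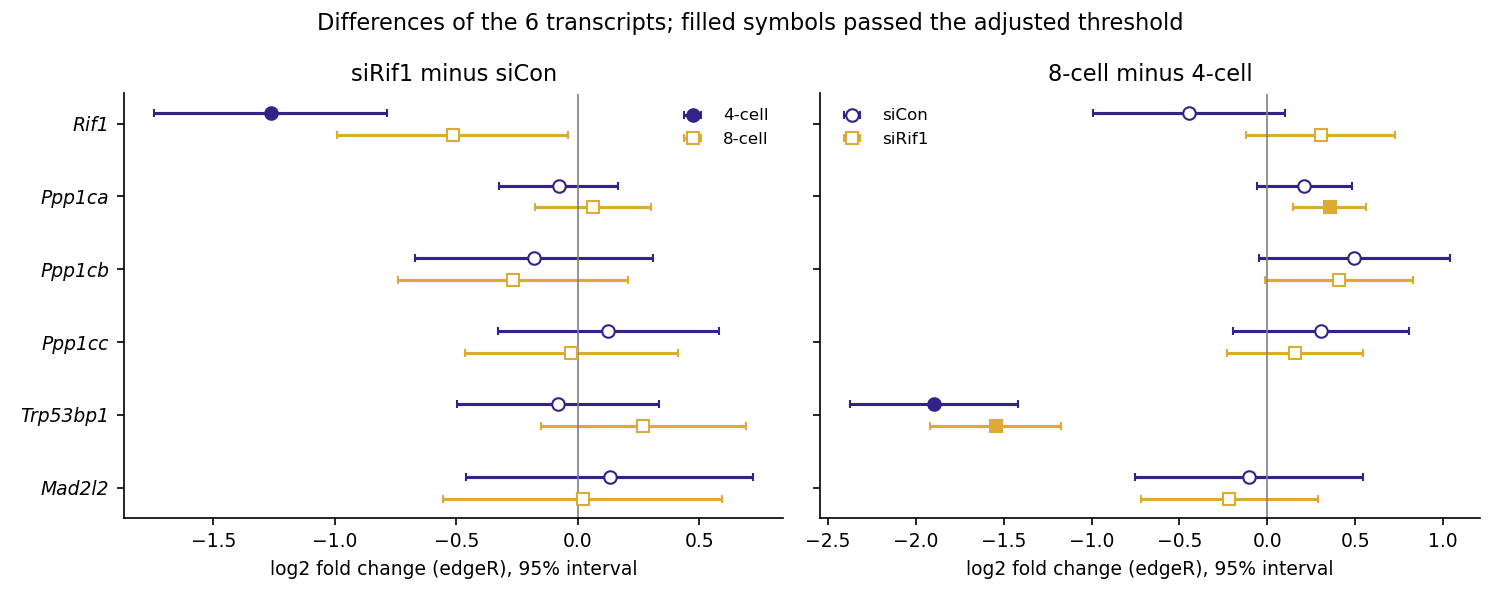
Fitted log2 fold changes from edgeR with their 95% intervals for the 6 transcripts, siRif1 minus siCon on the left and 8-cell minus 4-cell on the right. Filled symbols passed the adjusted threshold: Rif1 at the 4-cell stage on the left, Trp53bp1 in both siRNA groups and Ppp1ca in siRif1 embryos on the right. The other intervals include 0 except that of Rif1 at the 8-cell stage, -0.99 to -0.04.

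Trp53bp1 encodes 53BP1, which binds modified nucleosomes beside breaks and recruits RIF1. In siCon embryos its transcript ran from 73.6 to 175 CPM with a median of 110 CPM at the 4-cell stage and from 14.3 to 47.8 CPM with a median of 34.0 CPM at the 8-cell stage. In siRif1 embryos it ran from 66.3 to 173 CPM (median 124 CPM) and then from 18.3 to 54.7 CPM (median 40.6 CPM). The stages did not overlap in either siRNA group: 8 of 8 and 12 of 12 embryos at the 8-cell stage lay below every 4-cell embryo. Trp53bp1 fell by 1.90 in siCon embryos (SE 0.24, adjusted p = 9.9e-08), to 26.8% of the 4-cell mean, and by 1.55 in siRif1 embryos (SE 0.18, adjusted p = 2.1e-08), to 34.2%. In siCon embryos it fell by 1.97 without 4-cell embryos 3 and 7 (edgeR adjusted p = 3.0e-07). The fall in siRif1 embryos was the smaller by 0.35 (SE 0.29, edgeR adjusted p = 0.96), within the error. Calls by stage were frequent, 30% of genes in siCon and 29.8% in siRif1 embryos, with 16.3% and 15.3% called lower, so Trp53bp1 was 1 of many transcripts that fell.

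Scaling bears on every stage comparison. The log2 ratio of mouse to ERCC counts had a median of 5.07 in siCon 4-cell and 5.77 in siCon 8-cell embryos, and of 5.20 and 5.58 in siRif1 embryos. Scaling to ERCC totals moved the median log2 difference over all genes from -0.03 to 0.49 in siCon and from -0.01 to 0.46 in siRif1 embryos. It also raised the share of calls that were higher at the 8-cell stage from 45.8% to 80.9% and from 48.7% to 86.1%. Under it Trp53bp1 was still called lower, by 1.52 in siCon (edgeR adjusted p = 0.013) and by 1.00 in siRif1 embryos (0.027). Values that follow are relative to TMM scaling unless stated.

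Of the 3 catalytic subunits of PP1, only Ppp1ca was called by stage with TMM scaling, and only in siRif1 embryos. Over all genes 29.8% were called by stage in siRif1 and 30% in siCon embryos. The count among these 3 in siRif1 embryos is near that share. Ppp1ca encodes PP1 alpha, a form found in most tissues. It ran from 91.5 to 160 CPM (median 123 CPM) in siCon 4-cell and from 125 to 162 CPM (median 142 CPM) in siCon 8-cell embryos. In siRif1 embryos it ran from 93.4 to 146 CPM (median 114 CPM) and then from 104 to 197 CPM (median 147 CPM), and 7 of 12 embryos at the 8-cell stage lay above every 4-cell embryo. Ppp1ca rose by stage in siRif1 embryos, by 0.35 (SE 0.10, adjusted p = 0.0087), or 1.28-fold. Without the filter on low counts the difference was 0.33 and not called (edgeR adjusted p = 0.10). In siCon embryos it was 0.21 (SE 0.13, edgeR adjusted p = 0.24), and the difference between the siRNA groups, 0.14 (SE 0.17), was not called (adjusted p = 0.99). Without siCon 4-cell embryos 3 and 7 the siCon differences by stage were 0.19 for Ppp1ca, 0.44 for Ppp1cb and 0.06 for Ppp1cc, none of them called.

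Ppp1cb encodes PP1 beta, the form that works with myosin phosphatase targeting subunits. Its transcript was low, from 12.2 to 65.6 CPM over all 40 embryos, with medians of 37.3 and 54.8 CPM in siCon and 33.3 and 41.2 CPM in siRif1 embryos at the 4-cell and 8-cell stages. The groups overlapped, with 4 of 8 and 4 of 12 embryos at the 8-cell stage above every 4-cell embryo of their siRNA group. Its stage differences were 0.50 (SE 0.27, edgeR adjusted p = 0.16) and 0.41 (SE 0.21, edgeR adjusted p = 0.13), and with ERCC scaling the latter was 0.87 and called (edgeR adjusted p = 0.034).

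Ppp1cc encodes PP1 gamma, found at chromosomes and nucleoli. It ran from 52.8 to 252 CPM over all embryos, and its group medians lay between 117 CPM in siCon 4-cell and 160 CPM in siCon 8-cell embryos. The groups overlapped throughout. Its stage differences, 0.31 (SE 0.25, edgeR adjusted p = 0.37) in siCon and 0.16 (SE 0.19, edgeR adjusted p = 0.57) in siRif1 embryos, were within the error.

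Within the PP1 catalytic transcripts, levels were compared per kilobase of exon. Ppp1ca made up 56.7% ± 11.1 (SD, n = 7) of the summed level in siCon 4-cell embryos and 54.4% ± 7.52 (SD, n = 8) in siCon 8-cell embryos. Ppp1cc made up 39.4% ± 11.8 and 41.2% ± 8.17, and Ppp1cb 3.83% ± 1.54 and 4.44% ± 1.31. In siRif1 embryos the mean shares were 53.6% and 56.5% for Ppp1ca, 43.1% and 39.9% for Ppp1cc, and 3.25% and 3.65% for Ppp1cb. The order of Ppp1ca and Ppp1cc was not the same in every embryo, since the share of Ppp1ca ran from 35.6% to 72.0%, while that of Ppp1cb never passed 6.63%. With the longest annotated transcript as the length, the share of Ppp1cb reached at most 7.37%. Ppp1cb has 10913 annotated exon bases in all and 5962 in its longest transcript, and which of them the embryos used was not tested.

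Mad2l2 encodes REV7, which joins RIF1 to shieldin and is also a subunit of DNA polymerase zeta. In siCon 4-cell embryos it ran from 25.2 to 307 CPM with a median of 201 CPM, and its coefficient of variation of 60.6% was the highest of any member in any group. Embryos 3 and 7 had 41.3 and 25.2 CPM, while the other 5 ran from 165 to 307 CPM. No other embryo in any group was below 80.0 CPM. Since embryos 3 and 7 stood apart by their low Mad2l2, leaving them out lowers the Mad2l2 differences from this group by construction. In the siRif1 4-cell, siCon 8-cell and siRif1 8-cell groups the medians were 205, 171 and 159 CPM. The 4-cell difference between siRif1 and siCon was 0.13 (SE 0.29, edgeR adjusted p = 0.92) with all embryos and -0.28 without siCon embryos 3 and 7 (edgeR adjusted p = 0.88). By stage it was -0.10 (SE 0.32, edgeR adjusted p = 0.84) in siCon embryos, -0.53 there without embryos 3 and 7 (edgeR adjusted p = 0.12), and -0.22 (SE 0.25, edgeR adjusted p = 0.54) in siRif1 embryos, and with ERCC scaling and all embryos it was 0.17 in siCon and 0.21 in siRif1 embryos. The same pair had the lowest Ppp1cc values of the group, 87.7 and 52.8 CPM, and embryo 3 had the lowest and embryo 7 the highest Ppp1cb, at 15.1 and 52.2 CPM. For Rif1, Ppp1ca and Trp53bp1 both lay within the range of the other 5.

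The 6 transcripts were then set side by side per kilobase of exon. In siCon 4-cell embryos Mad2l2 led with 66.0 ± 40.0 CPM per kb (SD, n = 7), followed by Ppp1ca with 49.0 ± 8.68, Rif1 with 40.8 ± 10.2, Ppp1cc with 35.5 ± 14.6, Trp53bp1 with 8.61 ± 2.36 and Ppp1cb with 3.28 ± 1.03. The ranges of neighbours overlapped down to Ppp1cc, while those of Ppp1cc and Trp53bp1, and of Trp53bp1 and Ppp1cb, did not. With the longest annotated transcript as the length, the ranges of Trp53bp1 and Ppp1cb overlapped in these embryos too. In siCon 8-cell embryos the order by mean was Mad2l2, Ppp1ca, Ppp1cc, Rif1, Ppp1cb and Trp53bp1, with Ppp1cc now above Rif1 and Ppp1cb above Trp53bp1. The ranges of Ppp1cc and Rif1 overlapped in siCon embryos of both stages. Ppp1cb was at 4.63 ± 1.26 CPM per kb and Trp53bp1 at 2.31 ± 0.86 (SD, n = 8), with overlapping ranges. In siRif1 embryos Rif1 came below Mad2l2, Ppp1ca and Ppp1cc at both stages, at 16.9 ± 9.00 (SD, n = 13) and 21.0 ± 8.85 CPM per kb (SD, n = 12). Among all tested genes, Mad2l2 stood above 93.0% to 94.98% of them per length, and Trp53bp1 above 65.2% in siCon 4-cell and 37.4% in siCon 8-cell embryos.

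**Figure D3:**
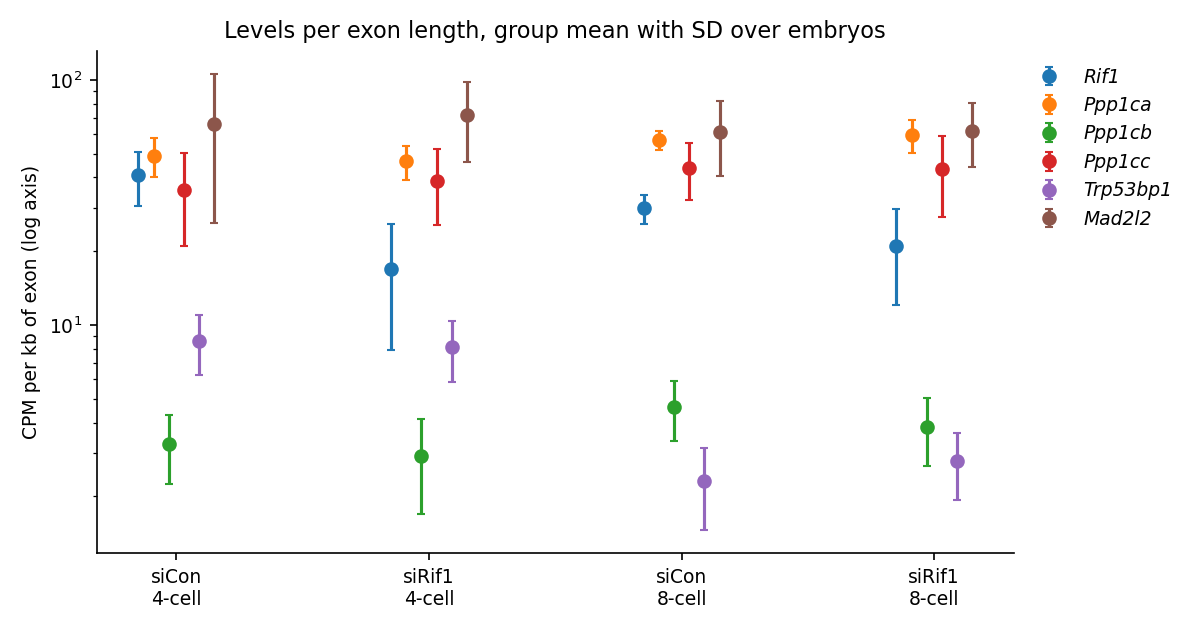
Group mean and SD of each transcript per kilobase of exon, on a log axis, with the 4 groups along the x axis. Mad2l2 and Ppp1ca keep the upper 2 places, Rif1 lies above Ppp1cc in siCon 4-cell embryos and below it in the other groups, and Trp53bp1 drops below Ppp1cb at the 8-cell stage.

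Because siRif1 embryos kept from 88.3 to 410 CPM of Rif1, the other transcripts were fitted against each embryo's own Rif1 log2 CPM, with stage as a covariate, over the 25 siRif1 embryos. None of the 5 partners had a slope past the threshold: they ran from -0.20 for Ppp1cb (95% interval -0.56 to 0.15) to 0.10 for Ppp1ca (95% interval -0.07 to 0.28), per log2 unit of Rif1. The fit called 0.00844% of genes, and 0 of 5 partners had an unadjusted p below 0.05, where 416 of 11843 genes did. With ERCC scaling 7138 genes were called, 7131 of them with positive slopes, and the slopes of Ppp1ca, Ppp1cb, Trp53bp1 and Mad2l2 were then positive and called, at 0.60, 0.36, 0.59 and 0.44. Rif1 and each other gene were read from the same libraries, so errors of scaling enter both axes.

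The 1 gene of 11843 that the fit called was H2afx, a member of the list of genes that bring 53BP1 to breaks. It encodes the histone H2AX, whose phosphorylated form marks chromatin at breaks and starts the recruitment of 53BP1 (ENSMUSG00000049932, chromosome 9, 44334694 to 44336077). Over the siRif1 embryos its level ran from 8.15 to 163 CPM (median 38.7 CPM) at the 4-cell stage and from 42.1 to 147 CPM (median 57.3 CPM) at the 8-cell stage. The siRif1 4-cell embryo with the least Rif1, 88.3 CPM, had the least H2afx, 8.15 CPM, and embryos 7 and 10, with the most Rif1, had 163 and 69.2 CPM. The slope was 1.03 (SE 0.18, adjusted p = 0.039). It was between 0.87 and 1.11 when each siRif1 embryo was left out in turn, but 16 of those 25 fits lost the call, with an adjusted p of up to 0.34 without siRif1 4-cell embryo 7.

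Between the siRNA groups H2afx was 42.4 to 329 CPM (median 146 CPM) in siCon 4-cell embryos, against the siRif1 values above, and 8 of 13 siRif1 embryos lay below every control. It was 88.7 to 178 CPM (median 137 CPM) in siCon 8-cell embryos, with 7 of 12 siRif1 embryos below every control. H2afx fell by 1.70 (SE 0.37, adjusted p = 0.019) at the 4-cell stage. That call was lost without siCon embryos 3 and 7 (-1.74, edgeR adjusted p = 0.11) and when siCon embryo 3 or siCon embryo 6 alone was left out, with an adjusted p of up to 0.093. It was also lost with the replicate number as a block, where 0 genes were called. The difference at the 8-cell stage was -0.80 (SE 0.37, edgeR adjusted p = 0.999).

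**Figure D4:**
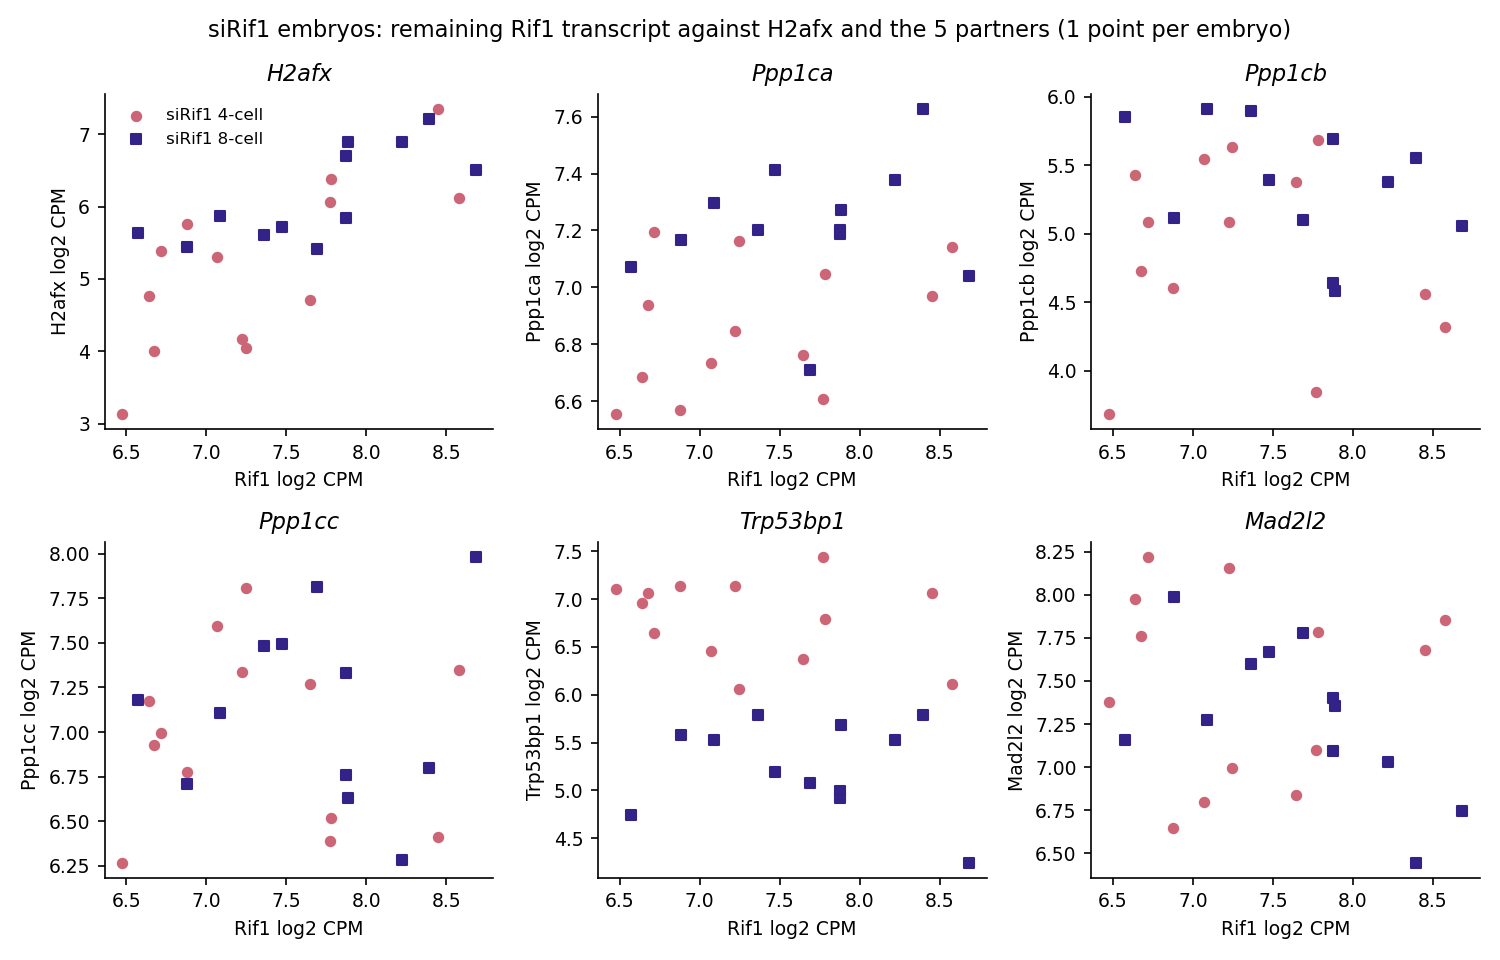
Remaining Rif1 log2 CPM in each siRif1 embryo (x axis) against the log2 CPM of H2afx and the 5 partners (y axes), 4-cell embryos as circles and 8-cell embryos as squares. H2afx climbs with Rif1 within each stage, while the 5 partners show no slope past the threshold and Trp53bp1 separates by stage.

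The other genes of the pathway were read from lists described by their counts and medians. Between siRif1 and siCon embryos, edgeR and DESeq2 each called 1 gene of these lists, H2afx, which fell at the 4-cell stage. The lists had 14, 14, 12, 30, 8 and 8 genes tested. Over all genes, edgeR called 0.566% at the 4-cell stage and 0.00844% at the 8-cell stage, and DESeq2 called 180 and 1 of 11844. Up to 3 genes of a list had an unadjusted p below 0.05. List medians ran from -0.17 to 0.06 at the 4-cell stage, against -0.01 over all genes, and from -0.07 to 0.10 at the 8-cell stage, against 0.00. In the arm downstream of RIF1 (shieldin, CST, primase, Artemis and the PTIP and dynein light chain partners of 53BP1) 14 of 16 genes were tested, and 3 rose and 1 fell by stage in siCon embryos, with a list median of -0.12 against -0.03 over all genes. In siRif1 embryos 2 rose and 2 fell, with a median of -0.09 against -0.01. That is 4 of 14 genes in each siRNA group, where 30% and 29.8% of all genes were called. Dclre1c, which encodes the Artemis nuclease, rose by 1.56 (SE 0.29, adjusted p = 8.3e-05) in siCon and by 1.65 (SE 0.22, adjusted p = 3.0e-07) in siRif1 embryos. Ten1, of the CST complex, rose by 1.45 (SE 0.32, adjusted p = 0.00061) and 0.98 (SE 0.24, adjusted p = 0.0018). Shld1, of shieldin, rose by 1.30 (SE 0.36, adjusted p = 0.0049) in siCon embryos from a median of 4.88 to 9.63 CPM. Dynll2, a dynein light chain, fell by 0.72 and 0.82, and the siCon call was lost in 7 of 15 fits that left out 1 embryo (edgeR adjusted p up to 0.089). Shld2 fell by 1.36 in siRif1 embryos (SE 0.54, adjusted p = 0.049), a call lost in 15 of 25 fits that left out 1 embryo.

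Upstream of 53BP1, 14 of 15 recruitment genes were tested, and 1 rose and 3 fell in siCon embryos, and 0 rose and 2 fell in siRif1 embryos, with list medians of -0.17 and 0.03. The 4 and 2 genes of 14 stand against 30% and 29.8% called over all genes. Rnf168, the ubiquitin ligase whose mark 53BP1 reads, ran from 36.9 to 89.7 CPM in siCon 4-cell and from 17.1 to 40.9 CPM in siCon 8-cell embryos. It fell by 1.06 (SE 0.20, adjusted p = 8.3e-05) in siCon and by 0.58 (SE 0.16, adjusted p = 0.0042) in siRif1 embryos. Mdc1, the adaptor that binds phosphorylated H2AX, fell by 0.77 (SE 0.23, adjusted p = 0.0082) and 0.62 (SE 0.18, adjusted p = 0.0065). Kmt5c, which methylates the histone tail that 53BP1 binds, fell by 1.38 in siCon embryos, a call lost without siCon 4-cell embryo 7 (-1.02, edgeR adjusted p = 0.087). Nudt16l1, known as an inhibitor of 53BP1, rose by 2.07 (SE 0.51, adjusted p = 0.0018) in siCon embryos, from a median of 1.88 to 8.85 CPM.

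Of 12 REV7 partners tested, 1 rose and 1 fell in each siRNA group, with list medians of -0.19 and 0.01. The 2 of 12 stand against 30% and 29.8% called over all genes. Mad2l1bp, which encodes p31comet and helps TRIP13 to remodel REV7 and MAD2, ran from 223 to 948 CPM in siCon 4-cell and from 151 to 400 CPM in siCon 8-cell embryos, with overlap. It fell by 1.43 (SE 0.21, adjusted p = 2.1e-06) in siCon and by 1.16 (SE 0.16, adjusted p = 7.1e-07) in siRif1 embryos. Champ1, a chromosome alignment protein that binds REV7, rose by 0.66 (SE 0.21, adjusted p = 0.015) and 0.70 (SE 0.16, adjusted p = 0.0011).

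RIF1 is 1 of many proteins that direct PP1, and of 39 other regulatory and targeting subunits 30 were tested. In siCon embryos 2 rose and 10 fell, with a list median of -0.30, and in siRif1 embryos 1 rose and 6 fell, with a median of -0.25. Over all genes 13.7% were called higher and 16.3% lower in siCon embryos, and 14.5% and 15.3% in siRif1 embryos. The 7 genes of 30 called in siRif1 embryos stand against 29.8% over all genes. Without siCon 4-cell embryos 3 and 7 the siCon counts were 2 and 4, where 1214 of 12223 genes in all were called higher and 1432 lower. With ERCC scaling they were 5 and 2, where 1799 of 11844 genes were called higher and 425 lower. The list median was then 0.24, below the 0.49 over all genes. Ppp1r16b, a membrane-bound targeting subunit, fell by 1.96 in both (SE 0.42, adjusted p = 0.00041, and SE 0.33, adjusted p = 1.5e-05), and its relative Ppp1r16a fell by 1.11 (SE 0.28, adjusted p = 0.0025) and 1.97 (SE 0.23, adjusted p = 1.2e-08). Cnst, which encodes consortin, fell by 1.49 and 0.73. Ppp1r14b, a phosphatase inhibitor, rose by 1.66 (SE 0.34, adjusted p = 0.00023) and 1.23 (SE 0.26, adjusted p = 0.00028), from 13.6 to 45.5 CPM by median in siCon embryos.

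Of the 8 other PPP-family catalytic subunits tested, 1 rose and 1 fell in siCon embryos and 2 rose in siRif1 embryos. In each siRNA group 2 of 8 is near the 30% and 29.8% called over all genes. Ppp2ca, the catalytic subunit of PP2A, rose by 0.99 (SE 0.23, adjusted p = 0.00094) and 0.75 (SE 0.17, adjusted p = 0.0011). Ppp3cc, a calcineurin subunit, fell by 1.64 in siCon embryos, a call lost without siCon 4-cell embryo 2 (-1.03, edgeR adjusted p = 0.16). Of the 8 genes for DDK and the replication factors whose phosphorylation RIF1 and PP1 reverse, 2 fell in each siRNA group, again 2 of 8 against 30% and 29.8%. They were the DDK kinase and its activator: Cdc7 fell by 1.05 (SE 0.29, adjusted p = 0.0056) and 0.79 (SE 0.23, adjusted p = 0.0078), and Dbf4 by 0.90 (SE 0.16, adjusted p = 5.1e-05) and 0.78 (SE 0.13, adjusted p = 8.6e-06). Dbf4 ran from 198 to 371 CPM in siCon 4-cell and from 93.0 to 164 CPM in siCon 8-cell embryos, without overlap. With ERCC scaling Cdc7 and Dbf4, along with Rnf168, Mdc1, Mad2l1bp and Dynll2, kept a negative sign but were no longer called in either siRNA group. Without siCon 4-cell embryos 3 and 7, Kmt5c was the only gene of those named from these lists to lose its siCon call by stage.

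**Figure D5:**
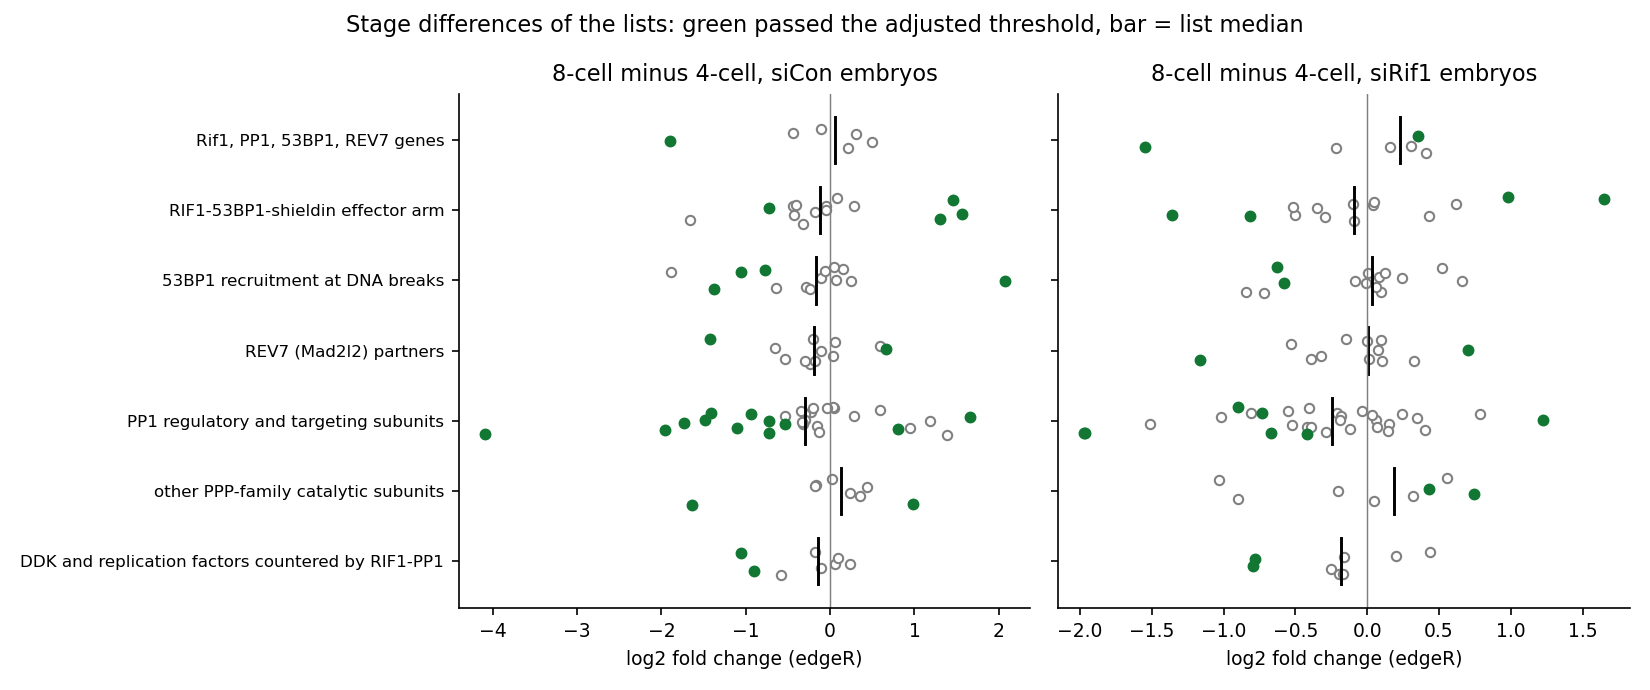
Log2 fold changes from the 4-cell to the 8-cell stage for each gene of the lists, in siCon embryos on the left and siRif1 embryos on the right. Green points passed the adjusted threshold and bars are list medians. Most PP1 regulatory subunits that passed lie left of 0, and DDK has its 2 called genes there in both panels.

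Over the 40 embryos, the patterns of Rif1, Ppp1cb, Ppp1cc, Trp53bp1 and Mad2l2 were set against 7364 genes by the root mean square difference of centred log2 CPM, as a description. The genes most like Trp53bp1 were Cbfa2t2 (0.49) and Slc45a3 (0.50), against a spread of Trp53bp1 around its own mean of 0.97. Both were lower at the 8-cell stage, by 1.57 and 2.00 on the log2 scale in siCon embryos. Their choice by likeness to Trp53bp1 over these same embryos made such a fall likely beforehand, so it is no separate result. For Rif1 the nearest were Ficd (0.60), Ell (0.60), Orc6 (0.61), Sertad1 (0.64) and Vps39 (0.64), against a spread of 0.74, so each followed it loosely. Being picked for likeness to Rif1 over these same embryos, they lean towards its fall in siRif1 embryos. Their own differences between siRNA groups are therefore no separate result. For Ppp1cc the nearest were AU020206 (0.28) and Wac (0.30), against a spread of 0.50, and for Ppp1cb Rheb (0.45) and Kif5b (0.45), against 0.59. For Mad2l2 they were Zmiz1 (0.49) and Znrd1 (0.50), against 0.71. None of the 5 transcripts compared here was among the nearest genes of another.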

How the data were processed

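RNA of single embryos was made into SMART-seq2 libraries from polyA RNA with ERCC spike-in. The deposited files hold read counts per gene with 4 summary entries, made with STAR 2.7.6a on GRCm38 per the submitters' processing notes. The release of the annotation used for counting is not stated there, and gene IDs were named with GENCODE M21, which matched 55227 of 55487. The unstranded counts were used, since the library type, and an even split of counts between strands (49.7% to 51.2%), give no strand. Reads mapped to several places (5.02% to 7.06% of all) and reads over several genes (1.68% to 4.26%) are outside the gene counts, and no molecular identifiers were used, so counts are not independent molecules.

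The 6 members and the gene lists were chosen with earlier results of these data known. In R 4.3.3, edgeR 4.0.16 (filterByExpr with a minimum count of 10, TMM, robust quasi-likelihood, Benjamini-Hochberg over all 11844 genes) was fitted to all 40 libraries with 4 group terms, and to the 25 siRif1 libraries with stage and the Rif1 log2 CPM (prior count 2) for 11843 genes. Intervals are 95%. Levels are CPM after TMM, divided by the union of exons in kb where genes are compared. Named were the 6 members, the list genes with the smallest p (up to 3 in each direction where called, otherwise up to 2; not all are printed), and the genes of nearest pattern (mean log2 CPM of at least 3); those of Ppp1ca are not reported here. The procedure was tested on simulated data. Alternatives were DESeq2 1.42.0, its size factors, ERCC totals, no filter, the compared groups alone, a replicate block, and leaving out embryos. Replicate numbers do not pair embryos by the labels, and no 2 libraries were duplicates (the lowest chi-square per degree of freedom over 780 pairs was 7.15).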

Additional observations from a re-analysis of the deposited data

Results flagged for a closer look

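Of 20 groups of up to 10 embryos examined for a sample far from the rest, over the 6 members and 4 further genes, 2 held one, while chance alone flags about 1 in 20. In the siCon 4-cell group Dbf4, the activator of the DDK kinase, was at 371 CPM in embryo 7, where the next highest embryo had 265 CPM and the median was 237 CPM. In the same group Dclre1c, which encodes the Artemis nuclease, was at 24.0 CPM in embryo 1, where the next highest had 12.7 CPM and the median was 11.3 CPM. Leaving out these embryos in turn kept both stage differences past the threshold: -0.78 for Dbf4 without embryo 7 and 1.81 for Dclre1c without embryo 1.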

How the results depend on the processing

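The fall of Trp53bp1 by stage was called in both siRNA groups under each alternative and with any 1 embryo left out (-1.996 to -1.78 in siCon, -1.61 to -1.48 in siRif1 embryos). The Rif1 difference at the 4-cell stage kept its sign and its call with any 1 embryo left out (-1.41 to -1.18), but was not called with ERCC totals (-1.10), with only the groups compared (-1.27), with a replicate block (-1.23) or without siCon 4-cell embryos 3 and 7 (-1.35). The number of genes called there, 67, was 4 with ERCC totals, 322 without the filter, 180 with DESeq2, 2 with only the groups compared, 0 with a replicate block (1015 genes at an unadjusted p below 0.05), 1 without embryos 3 and 7, and 9 to 238 with 1 embryo left out. At the 8-cell stage, where 1 gene was called, it was 0 with ERCC totals, without the filter, with only the groups compared and with the block, and 0 to 2 with 1 embryo left out. By stage in siCon embryos 3554 became 2224 with ERCC totals. The interaction, with 0 genes, had 9 with DESeq2 and 0 to 3 with 1 embryo left out. For the slope on Rif1, 1 gene became 0 with DESeq2's size factors (H2afx then 1.01, adjusted p = 0.056), 7138 with ERCC totals, 196 without the filter and 0 to 2 with 1 embryo left out (H2afx 0.87 to 1.11).

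Some values of Rif1 and its partners changed sign. Without siCon 4-cell embryos 3 and 7, Ppp1cc was -0.10 and Mad2l2 -0.28 between siRNA groups, and 0.085 and 0.30 in the interaction. These embryos stood apart by their low Mad2l2, so leaving them out moves its values that way by construction. With ERCC totals by stage, Rif1 was 0.058 in siCon embryos and Mad2l2 0.17 and 0.21, and Mad2l2 was 0.035 in the interaction. ERCC slopes were 0.36 for Ppp1cb, 0.59 for Trp53bp1 and 0.44 for Mad2l2, and without the filter that of Ppp1cc was -0.0033. With 1 embryo left out, the ranges that crossed 0 were, between siRNA groups at the 4-cell stage, -0.0075 to 0.32 for Ppp1cc, -0.17 to 0.028 for Trp53bp1 and -0.063 to 0.33 for Mad2l2. At the 8-cell stage they were -0.11 to 0.045 for Ppp1cc and -0.066 to 0.15 for Mad2l2, by stage in siCon embryos -0.30 to 0.10 for Mad2l2, in the interaction -0.20 to 0.050 for Ppp1cb and -0.31 to 0.081 for Mad2l2, and for the slope -0.10 to 0.11 for Ppp1cc. Other causes were not tested. Among member values under the other alternatives, 187 kept sign and call, 12 changed sign, 5 lost the call and 3 gained it.

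Same-numbered embryos did not deviate together (correlations of -0.24 to 0.19, means between -0.03 and 0.03), so no pairing by number was seen. Correlations of single embryos cannot exclude that some of the same number shared a litter or batch. At the lowest depth, 704863 counts, Ppp1cb had 34 counts and Trp53bp1 46, so counting error limits single embryos.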
